A study of Mus musculus with 96 samples.

Results

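The mRNA of 9 chemokines, Cxcl14, Cx3cl1, Cxcl16, Cxcl12, Ccl20, Ccl2, Cxcl1, Cxcl10 and Ccl22, was followed over the day in mouse epidermis with the clock gene Arntl switched on in different tissues. They are 9 of the 22384 genes listed in all 4 genotype tables and were chosen by name as chemokines of the skin. Cxcl14 and Cx3cl1 were in addition selected on their measured rhythms, which differed between genotypes, so those rhythms are given as a description and were not tested. The other 7 chemokines were not picked for a rhythm, and 5 of them reached the mean of 1 RPKM (reads per kilobase of transcript per mega-read, M) set for testing. Ccl20, with a mean of 0.798 RPKM, and Ccl22, with 0.187 RPKM, did not.

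Male C57BL/6 mice were 8 weeks old, ate chow freely and were kept under a 12 h light phase and a dark phase of equal length. Their dorsal epidermis was lifted off with dispase, and its poly(A) RNA was sequenced in 96 libraries. Each of 4 genotypes gave 4 mice at each of 6 zeitgeber times (ZT, hours after lights on): ZT0, ZT4, ZT8, ZT12, ZT16 and ZT20. In BRE, EpiRE and RERE both Arntl alleles were stopFL, which carry a stop cassette that Cre takes out, so that Arntl, which encodes the clock activator BMAL1, works only where Cre has acted. BRE mice carried Syt10-Cre (tg/wt) and no K14Cre (wt/wt), for a clock restored in the brain. EpiRE mice carried K14Cre (tg/wt) and no Syt10-Cre (wt/wt), for a clock restored in the epidermis. RERE mice carried both transgenes (each tg/wt), for a clock restored in brain and epidermis. WT mice had wt/wt Arntl alleles and also carried both Cre transgenes, so the transgenes themselves are shared by RERE and WT. K14 is a promoter of keratinocytes, so leukocytes, melanocytes and fibroblasts of the skin are not its targets.

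Chemokines are small secreted proteins that bind receptors on leukocytes and steer where these cells go. Some are made all the time and hold resident cells in place, such as Cxcl14 and Cxcl12, and others are induced by inflammatory signals through NF-kB or interferon pathways, such as Cxcl1, Ccl2, Ccl20 and Cxcl10. Cx3cl1 and Cxcl16 differ from the rest in that they are made as membrane proteins, which the proteases ADAM10 and ADAM17 cut loose. In mouse epidermis, keratinocytes share the tissue with Langerhans cells and dendritic epidermal T cells, both of which respond to chemokines.

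Depth ranged from 11.3 to 32.4 M reads per library, estimated from the lowest values in the tables, with a median of 16.5 M. The tables of the 4 genotypes were normalized apart, so levels were set side by side and were not tested between genotypes. P-values within a genotype measure the spread between its mice. Keratinocyte markers led in all libraries, with Krt10, a keratin of the upper layers, averaging 6886 RPKM. The highest T cell marker was Thy1 at 42.0 RPKM, the highest Langerhans and dendritic cell marker Cd74 at 35.1 RPKM and the highest melanocyte marker Tyr at 4.05 RPKM. Of 6 fibroblast markers, Col1a1 alone reached 1 RPKM (mean 2.06 RPKM), and no endothelial marker did. In bulk tissue, fewer cells of a type and less RNA per cell cannot be told apart. Among the clock genes, Arntl itself had a fitted daily peak-to-trough difference of 0.18 log2 in BRE, 0.76 in EpiRE, 2.16 in RERE and 2.31 in WT, and Dbp, a clock-driven transcription factor, 0.16, 1.92, 5.56 and 5.49 log2 in the same order. Reads of Arntl were present in BRE too, where its mean was 12.8 RPKM, against 15.4 in EpiRE, 15.2 in RERE and 14.7 in WT.

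The 250 bases before the RefSeq start of the 3 chemokines with a daily rhythm below are shown because Cxcl14 and Ccl20 were highest near lights on and Cx3cl1 near lights off. They lie on GRCm38.p6 at chr13:56296552-56296801 (minus strand), chr8:94771930-94772179 (plus strand) and chr1:83116516-83116765 (plus strand), each read 5′ to 3′ along its gene. Capitals mark AGGTCA or its reverse complement, the core letters bound by REV-ERB and ROR receptors.
Cxcl14: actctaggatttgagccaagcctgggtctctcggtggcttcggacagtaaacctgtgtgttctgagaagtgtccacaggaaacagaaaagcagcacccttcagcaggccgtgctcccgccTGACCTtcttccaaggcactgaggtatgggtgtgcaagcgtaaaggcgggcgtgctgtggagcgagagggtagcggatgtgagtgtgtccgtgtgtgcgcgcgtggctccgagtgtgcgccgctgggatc
Cx3cl1: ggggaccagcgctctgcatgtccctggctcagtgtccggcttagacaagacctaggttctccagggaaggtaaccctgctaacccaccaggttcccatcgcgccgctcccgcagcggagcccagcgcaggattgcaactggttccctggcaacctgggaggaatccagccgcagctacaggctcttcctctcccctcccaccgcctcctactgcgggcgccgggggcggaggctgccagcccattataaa
Ccl20: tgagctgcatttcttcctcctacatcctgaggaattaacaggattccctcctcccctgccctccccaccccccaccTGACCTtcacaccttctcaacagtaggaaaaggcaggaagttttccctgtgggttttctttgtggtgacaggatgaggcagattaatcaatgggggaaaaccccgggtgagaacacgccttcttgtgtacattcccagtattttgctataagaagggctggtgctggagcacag

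Windows of this kind were held for 7 of the 9 chemokines, all but Cxcl16 and Ccl2, and were searched on both strands. The windows of Cx3cl1 and Ccl22 run past the start of the gene as mapped below. Most of the Cx3cl1 window and part of the Ccl22 window thus lie within the gene. AGGTCA stood in 3 of the 7 windows (Cxcl14, Ccl20 and Ccl22) and in 14.0% of all 32851 windows. In Cxcl14 and in Ccl20 it lay on the opposite strand, 130 to 125 and 174 to 169 bases before the start. The E-box CACGTG, bound by BMAL1, was in none of the 7 windows and in 6.02% of all. The related CACGTT (3.85% of all windows) and the D-box letters TTATGTAA (0.819%) and TTACGTAA (0.113%) were in none of the 7 either. The interferon response core GAAANNGAA was in 2 of the 7, Cxcl10 and Cxcl14, and in 7.13% of all. The NF-kB consensus was in Ccl20, Cxcl1 and Cxcl10 and in 3.90% of all windows. No match overlapped an AGGTCA match. These are letters in a window and say nothing about binding.

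Cxcl14, which keratinocytes make in the resting state and which draws monocytes and dendritic cell precursors, was the most abundant of the 9 per length in each genotype. Its rows map to mm10 chromosome 13, 56288643 to 56296551, minus strand (ENSMUSG00000021508). At ZT0 the 4 mice had 268, 380, 370 and 340 RPKM in BRE, 182, 258, 234 and 182 RPKM in EpiRE, 376, 257, 321 and 362 RPKM in RERE, and 284, 207, 270 and 208 RPKM in WT. At ZT12 they had 341, 317, 319 and 310 RPKM in BRE, 147, 162, 163 and 181 RPKM in EpiRE, 120, 70.0, 108 and 98.0 RPKM in RERE, and 90.2, 120, 89.9 and 86.1 RPKM in WT. The values at both times overlapped in BRE, while in EpiRE, RERE and WT all 4 mice at ZT0 lay above all 4 at ZT12.

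Over all times the Cxcl14 mean was 319 ± 32.7 RPKM in BRE, 199 ± 45.2 RPKM in EpiRE, 216 ± 91.4 RPKM in RERE and 163 ± 59.1 RPKM in WT (SD, n = 24 mice each). The lowest BRE mouse, at 243 RPKM, was level with the highest WT mean, that of ZT0. All 4 BRE mice were above all 4 WT mice at 5 of the 6 times, with ZT0 the exception, and the ratio of the means was 3.33 at ZT12. Over all pairs of a tested gene and a time, BRE mice lay above WT mice without overlap in 7.11% and below them in 9.13%. Cxcl14 was picked on rhythms in these same values that differed between genotypes. Its separation from WT by time is tied to that choice and is a description only. In RERE the mean was 329 ± 53.3 RPKM at ZT0 and 98.9 ± 21.3 RPKM at ZT12, with no overlap (SD, n = 4 each). In WT the same times had 242 ± 40.3 and 96.6 ± 15.8 RPKM.

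The fitted peak-to-trough difference of Cxcl14 was 0.15 ± 0.08 log2 in BRE, 0.62 ± 0.13 log2 in EpiRE, 1.72 ± 0.16 log2 in RERE and 1.35 ± 0.14 log2 in WT (SE, 24 mice each). Its peak was fitted at ZT22.5 in EpiRE, ZT23.4 in RERE and ZT0.224 in WT. The median over all 12144 tested genes was 0.20 log2 in BRE, 0.15 in EpiRE, 0.18 in RERE and 0.23 in WT. These sizes are what Cxcl14 was picked for. RERE and WT mice overlapped in level at 5 of the 6 times, and at ZT20 all 4 RERE mice lay above all 4 WT mice, which held for 4.78% of all pairs of a tested gene and a time. EpiRE mice lay above WT mice without overlap at ZT8, ZT12 and ZT20, against 6.25% of all such pairs. Because of how Cxcl14 was picked, these overlaps too are a description only.

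Cx3cl1, or fractalkine, tethers and attracts cells that carry CX3CR1, among them monocytes and other myeloid cells. It maps to chromosome 8, 94772009 to 94782427, plus strand (ENSMUSG00000031778), next to Ccl22, whose rows map to 94745590 to 94751699 on the same strand. At ZT12 its values were 9.51, 9.67, 8.10 and 11.4 RPKM in BRE, 18.0, 17.7, 18.8 and 15.9 RPKM in EpiRE, 20.2, 18.7, 19.5 and 18.5 RPKM in RERE, and 20.6, 20.4, 20.7 and 19.2 RPKM in WT. At ZT0 they were 10.8, 12.2, 11.2 and 11.6 RPKM in BRE, 14.1, 11.4, 12.0 and 10.4 RPKM in EpiRE, 12.8, 11.1, 10.0 and 12.0 RPKM in RERE, and 10.5, 9.83, 10.2 and 9.81 RPKM in WT. BRE had no raised value at ZT12, and in the other genotypes the ZT12 mice lay above the ZT0 mice without overlap.

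The direction of the BRE level was thus opposite for the pair picked for their rhythms. Cx3cl1 averaged 10.3 ± 1.24 RPKM in BRE, 14.8 ± 2.23 RPKM in EpiRE, 14.9 ± 3.70 RPKM in RERE and 15.1 ± 3.98 RPKM in WT (SD, n = 24 mice each). BRE stayed near the WT trough of 10.1 ± 0.340 RPKM at ZT0, and at ZT8, ZT12, ZT16 and ZT20 all 4 BRE mice lay below all 4 WT mice. At ZT12 the BRE mean was 0.478 of the WT mean. At ZT0 the BRE mice lay above the WT mice, at 1.13 times their mean. Among all pairs of a tested gene and a time, BRE mice lay below WT mice without overlap in 9.13% and above them in 7.11%. Cx3cl1 was picked on rhythms in these same values, so its separation from WT by time is a description only.

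The fitted peak-to-trough difference of Cx3cl1 was 0.21 ± 0.10 log2 in BRE, 0.38 ± 0.11 log2 in EpiRE, 0.91 ± 0.08 log2 in RERE and 1.06 ± 0.06 log2 in WT (SE). The peaks were fitted at ZT10.6 in EpiRE, ZT13.7 in RERE and ZT12.8 in WT. EpiRE was already at 15.6 ± 1.48 RPKM at ZT4, against 11.2 ± 1.00 RPKM in RERE and 11.1 ± 1.24 RPKM in WT (SD, n = 4). All 4 EpiRE mice at ZT4 were above all 4 WT mice, which held for 6.25% of all pairs of a tested gene and a time. Since Cx3cl1 was picked for its rhythms, this too is a description only. At ZT16 EpiRE averaged 14.1 ± 2.30 RPKM, against 19.8 ± 0.317 RPKM in RERE and 18.4 ± 1.86 RPKM in WT.

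**Figure D1:**
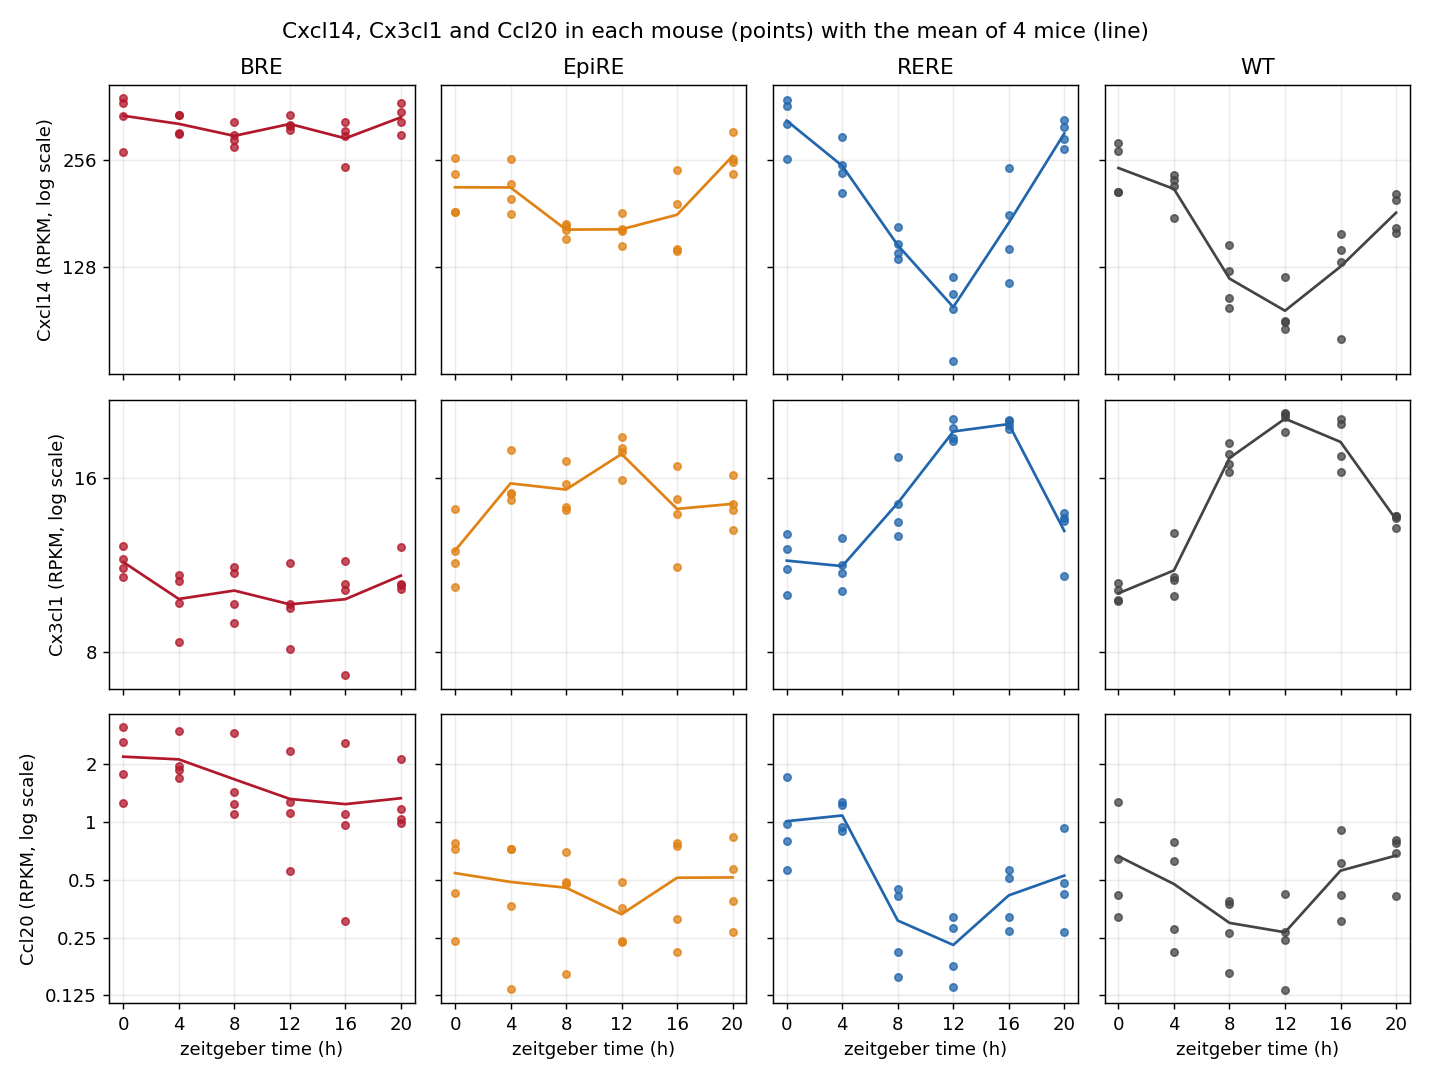
Level of Cxcl14, Cx3cl1 and Ccl20 in RPKM on a log2-spaced axis against zeitgeber time in hours, by genotype; points are mice and lines join the means of 4 mice. BRE is flat and high for Cxcl14 and flat and low for Cx3cl1, RERE and WT have Cxcl14 lowest and Cx3cl1 high at ZT12, and Ccl20 is higher in BRE than elsewhere.

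Likeness to these patterns was measured as Pearson's r over the 24 means of genotype and time, centred within each genotype, among tested genes, as a description. The 5 genes most like Cxcl14 were Npas2 (r = 0.95), a partner of BMAL1, Ttc9 (0.92), Arntl (0.91), Coro1c (0.91), which encodes an actin-binding coronin, and Plxnd1 (0.91), a plexin receptor. Those most like Cx3cl1 were Lonrf1 (r = 0.96), Rev1 (0.94), a translesion DNA polymerase, Tmem57 (0.93), Sod2 (0.93), the mitochondrial superoxide dismutase, and Sord (0.93), the sorbitol dehydrogenase. Of the clock references, Per2, a clock repressor, had r = 0.92 with Cx3cl1 and -0.88 with Cxcl14, and Nr1d1, which encodes REV-ERB alpha, had 0.10 and -0.46. Cxcl14 and Cx3cl1 had r = -0.81 with each other. Since the pair was picked for such rhythms, clock genes near the top of these rankings add nothing to that choice. Between mice of the same genotype and time, where the daily pattern is removed, Cxcl14 and Cx3cl1 had Pearson's r = 0.13 and Spearman's rho = 0.20 over 96 mice (permutation test, adjusted p = 0.375 and 0.163), and r ranged from -0.47 in EpiRE to 0.72 in WT.

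Ccl20, which attracts CCR6-bearing T cells and dendritic cells and is induced in keratinocytes by NF-kB signals, was the one member outside the picked pair with a called rhythm, and only below the expression limit used for the other tests. It maps to chromosome 1, 83116766 to 83119167, plus strand (ENSMUSG00000026166). At ZT0 its values were 1.26, 2.60, 1.77 and 3.09 RPKM in BRE, 0.427, 0.240, 0.776 and 0.720 RPKM in EpiRE, 0.969, 0.564, 0.791 and 1.70 RPKM in RERE, and 0.643, 1.27, 0.418 and 0.320 RPKM in WT. At ZT12 they were 1.11, 0.551, 1.27 and 2.33 RPKM in BRE, 0.238, 0.356, 0.489 and 0.240 RPKM in EpiRE, 0.319, 0.281, 0.178 and 0.138 RPKM in RERE, and 0.423, 0.267, 0.242 and 0.133 RPKM in WT. All 4 RERE mice at ZT0 lay above all 4 at ZT12, while the mice of these times overlapped in BRE, EpiRE and WT.

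With the limit lowered to a mean of 0.3 RPKM, which let in 14103 genes, Ccl20 varied by 2.16 ± 0.38 log2 in RERE, or 4.48-fold, with its peak at ZT0.681 (SE; limma F test, adjusted p = 0.00178). In WT it varied by 1.41 ± 0.38 log2 with its peak at ZT21.4 (adjusted p = 0.0213). In BRE the fitted size was 1.15 ± 0.40 log2 (adjusted p = 0.110) and in EpiRE 0.50 ± 0.45 log2 (adjusted p = 0.790), neither of which passed. At this limit the test called 14.9% of all genes in BRE, 2.37% in EpiRE, 14.8% in RERE and 31.0% in WT. The authors' deposited JTK_CYCLE q for Ccl20 was 0.251 in BRE, 1 in EpiRE, 0.0166 in RERE and 0.0788 in WT. In the authors' deposited tables the JTK_CYCLE q lay below 0.05 for 5.02% of all genes in RERE and 12.2% in WT. The authors' other deposited rhythm test, BIOCYCLE, did not call Ccl20 in any genotype. Its q was 0.651 in BRE, 0.149 in RERE and 0.239 in WT. The limma call in RERE held without each single library and each replicate number, with adjusted p from 0.000893 to 0.0364. The WT call was lost without replicate number 2 or 3 (adjusted p = 0.110 and 0.0954) and with time fitted as 6 levels (adjusted p = 0.122). In BRE the call appeared when replicate 1 of ZT16 was left out (adjusted p = 0.0401).

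A difference of the Ccl20 rhythm between genotypes was not called in any of the 5 pairs. The adjusted p was 0.0689 for BRE against WT, 0.561 for EpiRE against WT, 0.249 for RERE against WT, 0.408 for RERE against BRE and 0.159 for RERE against EpiRE. At the 0.3 RPKM limit these tests called 17.2%, 7.22%, 0.0284%, 4.19% and 3.62% of all genes, in the same order. Estimated reads per library had a median of 29.2 in BRE, 6.74 in EpiRE, 8.35 in RERE and 6.94 in WT, and mice of the same time differed by an SD of 0.76, 0.85, 0.60 and 0.71 log2 in the same order.

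Of the 9 chemokines, Ccl20 had the highest ratio of the BRE mean to the WT mean. Its mean was 1.64 ± 0.777 RPKM in BRE, 0.473 ± 0.227 RPKM in EpiRE, 0.593 ± 0.409 RPKM in RERE and 0.487 ± 0.276 RPKM in WT (SD, n = 24 mice each). The BRE mean was 3.36 times the WT mean, and 3.44 times after all 4 tables were brought to a common scale. All 4 BRE mice were above all 4 WT mice at ZT4, ZT8, ZT12 and ZT20, with a ratio of 5.58 at ZT8, and the groups overlapped at ZT0 and ZT16. Over all pairs of a tested gene and a time the share was 7.11%, but this covers genes of at least 1 RPKM and so leaves out Ccl20.

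Cxcl16, the other membrane chemokine and the ligand of CXCR6, was the second most abundant member at 29.2 ± 6.07 RPKM in BRE, 21.0 ± 3.12 RPKM in EpiRE, 22.1 ± 3.76 RPKM in RERE and 21.8 ± 4.31 RPKM in WT (SD, n = 24 mice each). It maps to chromosome 11, 70453983 to 70459984, minus strand (ENSMUSG00000018920). Its mice in BRE lay above those in WT without overlap at ZT0, ZT16 and ZT20 and overlapped at the other 3 times. Among all pairs of a tested gene and a time, 7.11% had BRE above WT in this way. Its fitted rhythm was 0.32 ± 0.16 log2 in BRE, 0.15 ± 0.12 in EpiRE, 0.18 ± 0.14 in RERE and 0.25 ± 0.13 in WT (SE). None passed the test (limma, adjusted p = 0.298, 0.702, 0.605 and 0.296 in that order).

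Cxcl12, which holds cells that carry CXCR4 and is made mainly by stromal cells, averaged 5.06 ± 1.74 RPKM in BRE, 4.28 ± 1.49 RPKM in EpiRE, 3.76 ± 1.33 RPKM in RERE and 4.53 ± 1.40 RPKM in WT (SD, n = 24 mice each). It maps to chromosome 6, 117168535 to 117181367, plus strand. Mice of the same group differed widely: in WT at ZT8 they spanned 0.857 to 5.15 RPKM, and in RERE at ZT8 0.972 to 3.72 RPKM. BRE and WT overlapped at each of the 6 times. Its fitted rhythm was 0.37 ± 0.25 log2 in BRE, 0.14 ± 0.30 in EpiRE, 0.17 ± 0.36 in RERE and 0.24 ± 0.36 in WT (SE), with adjusted p of 0.508 or more in limma's test.

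Ccl2, Cxcl1 and Cxcl10 were present at 1 to 3 RPKM on average. Ccl2, which recruits CCR2-bearing monocytes, averaged 2.09 ± 1.08 RPKM in BRE, 1.09 ± 0.486 RPKM in EpiRE, 1.12 ± 0.623 RPKM in RERE and 1.32 ± 0.819 RPKM in WT (SD, n = 24 mice each), and BRE mice lay above WT mice without overlap at ZT0 and ZT8. Cxcl1, which recruits neutrophils through CXCR2, averaged 2.41 ± 0.798 RPKM in BRE, 1.71 ± 0.880 RPKM in EpiRE, 1.89 ± 0.697 RPKM in RERE and 1.83 ± 0.978 RPKM in WT. Cxcl10, the interferon-induced ligand of CXCR3, averaged 1.69 ± 0.699 RPKM in BRE, 1.29 ± 0.747 RPKM in EpiRE, 1.17 ± 0.452 RPKM in RERE and 1.40 ± 0.691 RPKM in WT. For Cxcl1 and Cxcl10 the mice of BRE and WT overlapped at all 6 times. Among all pairs of a tested gene and a time, BRE mice lay above WT mice without overlap in 7.11%. In WT Cxcl10 was raised at ZT12, at 2.48 ± 0.258 RPKM against 0.980 ± 0.410 RPKM at ZT16 (SD, n = 4), but the 24 h fit gave 0.58 ± 0.43 log2 (SE) and did not pass (limma, adjusted p = 0.532).

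None of the 5 tested chemokines that were not picked for a rhythm was called in any genotype (limma, adjusted p below 0.05), and none had an unadjusted p below 0.05. The authors' deposited JTK_CYCLE q called none of them either. Their fitted sizes ran from 0.30 to 0.45 log2 in BRE, 0.14 to 0.81 in EpiRE, 0.17 to 0.41 in RERE and 0.24 to 0.58 in WT, with SE between 0.12 and 0.55 log2. Of all tested genes, the same test called 17.1% in BRE, 2.87% in EpiRE, 16.4% in RERE and 34.4% in WT. For differences of rhythm, 0 of the 5 were called in each pair, against 20.2% of all genes for BRE against WT, 8.51% for EpiRE against WT, 0.453% for RERE against WT, 4.79% for RERE against BRE and 4.04% for RERE against EpiRE. Before adjustment 1 of these differences passed, Cxcl16 in BRE against WT (limma, adjusted p = 0.108), whose fitted peaks were ZT20.6 in BRE and ZT7.81 in WT. The median size of the 5 was 0.36 log2 in BRE, 0.54 in EpiRE, 0.33 in RERE and 0.45 in WT, above the median of all tested genes in each. A fitted size is never negative and rises with the spread between mice, so these medians are no sign of a rhythm.

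**Figure D2:**
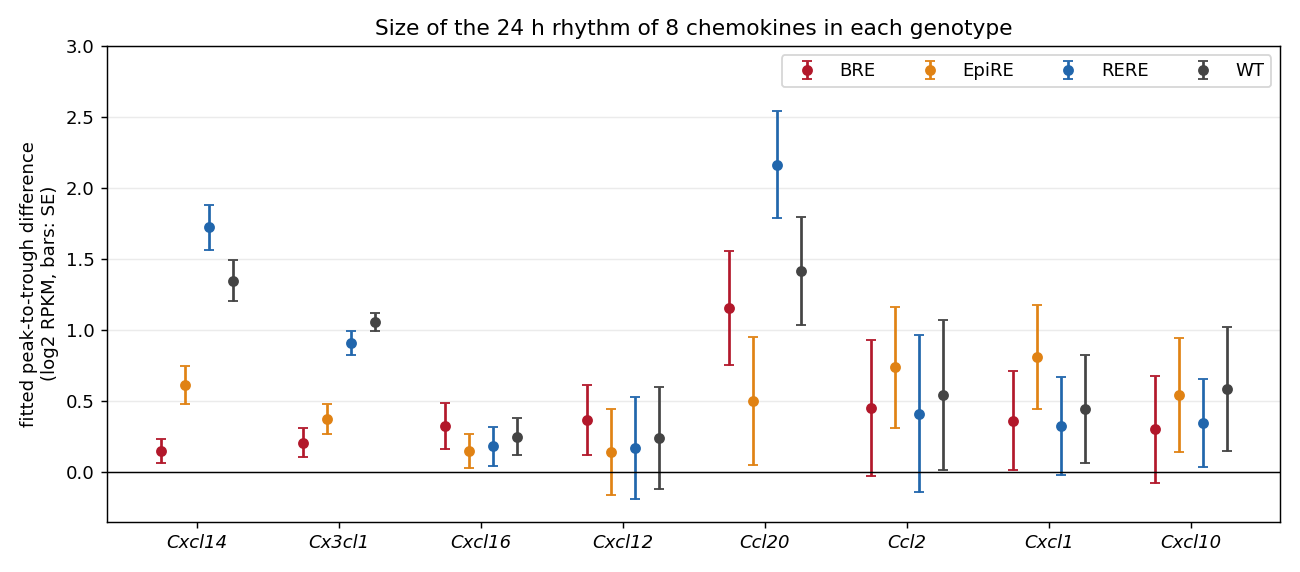
Fitted peak-to-trough difference in log2 RPKM of 8 chemokines by genotype, with bars for the SE over 24 mice. Cxcl14 and Cx3cl1 are small in BRE and large in RERE and WT, Ccl20 is largest in RERE and has wide bars, and the other 5 reach at most 0.81 log2.

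Ccl22, made by dendritic cells to attract CCR4-bearing T cells, was at the limit of detection. Libraries held 0 to 12 reads of it, and 4 libraries of BRE, 4 of EpiRE, 1 of RERE and 1 of WT held none. Its mean of 0.156 ± 0.0753 RPKM in BRE, 0.199 ± 0.126 RPKM in EpiRE, 0.197 ± 0.102 RPKM in RERE and 0.196 ± 0.106 RPKM in WT (SD, n = 24) includes reads added before the log2 step. EpiRE mice averaged 0.361 ± 0.119 RPKM at ZT8, with no overlap with the 0.110 ± 0.0342 RPKM of ZT16 (SD, n = 4), and the ZT8 mice also lay above those of WT. With no filter, the fitted rhythm did not pass in any genotype (limma, adjusted p from 0.566 to 0.800), and the low reads leave these values imprecise.

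**Figure D3:**
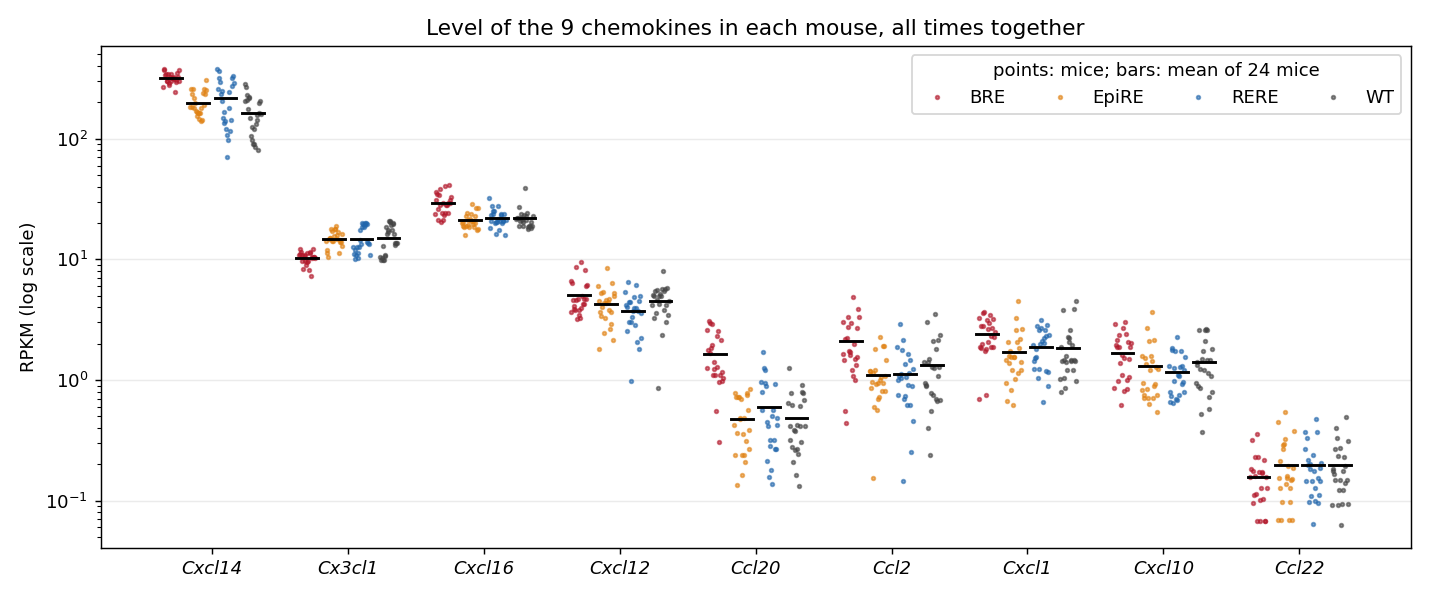
Level of the 9 chemokines in RPKM on a log10 axis, with each mouse as a point and the mean of 24 mice as a bar, by genotype. BRE has the highest mean for all but Cx3cl1 and Ccl22, and Ccl22 lies near the floor of the tables.

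In order of mean level BRE came first for 7 of the 9 chemokines and last for Cx3cl1 and Ccl22. Among those that reached 1 RPKM it was first for 6 of 7, and among all tested genes for 19.6%. These 7 include Cxcl14 and Cx3cl1, which were picked on rhythms in the same values, so their levels are a description only. Without that pair, BRE was first for each of the rest, Cxcl16, Cxcl12, Ccl2, Cxcl1 and Cxcl10. RERE mice lay above WT mice without overlap at 1 time each for Cxcl14, Cxcl16 and Ccl20, and at no time for the other 6. This held in 2 of the 42 pairs of a tested chemokine and a time, and in 4.78% of all pairs of a tested gene and a time. Bringing the tables to a common scale moved the mean ratio of BRE to WT for Cxcl14 to 2.01, against 1.95 as deposited, and for Cx3cl1 to 0.697, against 0.682.

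Mice of the same genotype and time were then compared with each other, since their deviations from the group mean hold no daily rhythm. Of 36 pairs of chemokines, 9 were correlated (permutation within genotype and time, 100000 resamples, two-sided, adjusted over all 108 pairs computed, which included 72 of a chemokine with the mean of a marker list). Cxcl16 was in 5 of the 9, with Ccl2 (r = 0.54, rho = 0.58), Cxcl10 (r = 0.52, rho = 0.55), Cxcl12 (r = 0.45, rho = 0.46), Ccl20 (r = 0.44, rho = 0.45) and Cxcl1 (r = 0.40, rho = 0.37), each over 96 mice, with adjusted permutation p for r of 0.00166 or less and for rho of 0.00574 or less. Without the 2 mice farthest from the median of Cxcl16 these r were 0.55, 0.55, 0.44, 0.41 and 0.38. Within genotypes all were positive, and with Ccl2, r was 0.65 in BRE, 0.72 in EpiRE, 0.41 in RERE and 0.40 in WT. With Cxcl10 it was 0.63, 0.76, 0.49 and 0.17 in the same order. Ccl2 also went with Cxcl10 (r = 0.52, rho = 0.55, adjusted permutation p = 0.000154 and 0.00018; 0.57 without the 2 farthest mice), although r was 0.09 in RERE. The other 3 pairs were Cxcl12 with Ccl2 (r = 0.51), Cxcl1 with Cxcl10 (r = 0.42) and Ccl2 with Ccl22 (r = 0.30). Neither Cxcl14 nor Cx3cl1 was in any of the 9 pairs.

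The strongest relation of any chemokine was that of Cxcl12 with the hair follicle markers. Over 96 mice r was 0.79 and rho 0.78 (adjusted permutation p = 0.000154 and 0.00018; the unadjusted p of 1e-05 is the smallest these resamples can give), and 0.75 without the 2 mice farthest from the median of Cxcl12. It held in each genotype, with r = 0.80 in BRE, 0.65 in EpiRE, 0.81 in RERE and 0.88 in WT. With the keratinocyte markers Cxcl12 went the other way (r = -0.62, rho = -0.63, -0.66 without those 2 mice, and between -0.76 and -0.52 within genotypes, at the same adjusted permutation p). Ccl2, Cxcl16 and Cxcl10 also went with the hair follicle markers (r = 0.54, 0.42 and 0.42, adjusted permutation p of 0.00177 or less), the last 2 with little relation in 1 genotype each: 0.05 for Cxcl16 in WT and 0.13 for Cxcl10 in RERE. The libraries lowest in Cxcl12 had the least follicle signal of their groups. In replicate 2 of RERE at ZT8 the geometric mean of the 7 follicle markers was 20.04 RPKM, against 30.4 to 30.7 RPKM in the other 3 mice. In replicate 1 of WT at ZT8 it was 17.9 RPKM, against 40.2 to 45.4 RPKM. Both libraries were also the lowest of their groups in T cell markers, at a geometric mean of 1.59 RPKM against 3.44 to 5.19 RPKM in RERE and 1.05 RPKM against 2.48 to 3.88 RPKM in WT. The same held for melanocyte markers, and in WT for Langerhans and dendritic cell markers. The part of these other markers in the chemokine differences was not tested.

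**Figure D4:**
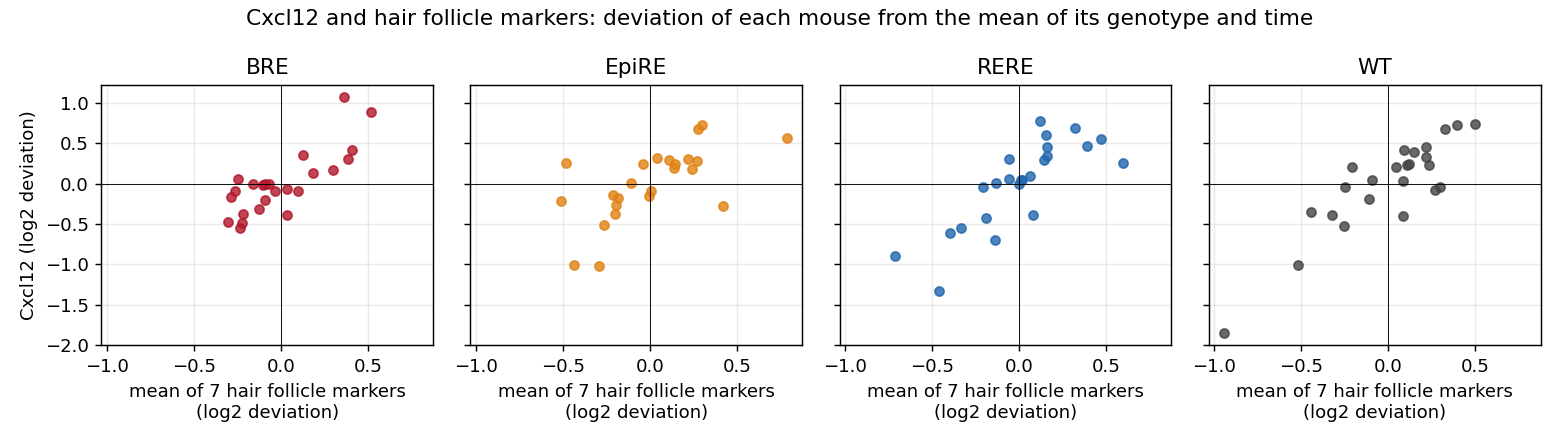
Deviation of Cxcl12 from the mean of its genotype and time, in log2, against the same deviation of the mean of 7 hair follicle markers, 1 panel per genotype and 1 point per mouse. Mice with more follicle signal have more Cxcl12 in each of the 4 genotypes.

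T cell markers moved with Ccl2 (r = 0.56, rho = 0.48, adjusted permutation p = 0.000154 and 0.000648; 0.51 without the 2 farthest mice, and 0.41 in BRE, 0.66 in EpiRE, 0.66 in RERE and 0.46 in WT) and with Ccl22 (r = 0.36, rho = 0.42, adjusted permutation p = 0.00238 and 0.00147). They also moved with Cxcl10 (r = 0.37, rho = 0.39, adjusted permutation p = 0.0085 and 0.00331), with r near 0 in RERE. With Cxcl12, r was 0.38 and rho 0.28 (adjusted permutation p = 0.04 and 0.064), and r was 0.24 without the 2 farthest mice. Ccl22 went with the fibroblast markers (r = 0.35, rho = 0.31, adjusted permutation p = 0.0228 and 0.0435). Within genotypes this r was -0.02 in BRE, 0.37 in EpiRE, 0.44 in RERE and 0.52 in WT. Both measures lie near the floor, with 0 to 12 reads of Ccl22 per library and 1 of 6 fibroblast markers at 1 RPKM or more. Cxcl14 had a relation with 1 list, the melanocyte markers (r = -0.32, adjusted permutation p = 0.0421, rho = -0.27 with adjusted permutation p = 0.0709). It came from WT, where r was -0.67, against 0.03 in BRE, 0.10 in EpiRE and -0.26 in RERE. In all these pairs both measures come from the same library.

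Of 27 other chemokine genes in the tables, 6 reached 1 RPKM. Of these, 1 was called in RERE and 0 in BRE, EpiRE and WT. The shares of all tested genes called were 16.4% in RERE, 17.1% in BRE, 2.87% in EpiRE and 34.4% in WT. Ccl27a, which keratinocytes make to draw CCR10-bearing T cells to the skin, averaged 182 ± 41.8 RPKM in BRE, 146 ± 30.7 RPKM in EpiRE, 145 ± 42.9 RPKM in RERE and 129 ± 35.4 RPKM in WT (SD, n = 24 mice each), second to Cxcl14. In RERE it varied by 0.87 ± 0.18 log2 with its peak at ZT0.414 (SE; limma, adjusted p = 0.00769). In WT it had 0.58 ± 0.19 log2 with its peak at ZT1.53 and did not pass (adjusted p = 0.0533). No difference of its rhythm between genotypes was called.

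Among 23 receptor genes, 9 reached 1 RPKM, of which 1 was called in RERE and 2 in WT. Of all tested genes, 16.4% were called in RERE and 34.4% in WT. Ackr2, a decoy receptor that clears inflammatory CC chemokines, varied by 0.75 ± 0.16 log2 in RERE with its peak at ZT5.79 (limma, adjusted p = 0.00742). In WT Ackr3, the scavenger of CXCL12, had a fitted range of 0.57 ± 0.14 log2 that peaked at ZT7.52 (adjusted p = 0.0123), and Ccr10 by 0.65 ± 0.16 log2 with its peak at ZT20.3 (adjusted p = 0.0128). Signalling receptors of 8 of the 9 chemokines, all but Cxcl14, were looked up after their values were known. These receptors were mostly weak: over all 96 libraries Ccr4 averaged 30.3 RPKM, Cxcr2 11.8, Cx3cr1 1.76, Cxcr6 0.659, Cxcr4 0.626, Ccr6 0.125, Cxcr3 0.116 and Ccr2 0.0704 RPKM. Ccl22, the ligand of CCR4, was thus the weakest of the 9 chemokines and its receptor the strongest of the 8.

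Of 13 tested genes for shedding, cleavage and binding of chemokines, 2 were called in BRE, 0 in EpiRE, 4 in RERE and 5 in WT, where the shares of all tested genes called were 17.1%, 2.87%, 16.4% and 34.4%. Adam17, the protease that sheds CX3CL1, was at 29.3 ± 2.23 RPKM at ZT12 in BRE, 24.5 ± 2.29 RPKM in EpiRE, 23.1 ± 0.832 RPKM in RERE and 20.4 ± 1.80 RPKM in WT (SD, n = 4 mice each). At ZT0 it was at 31.7 ± 2.82, 30.6 ± 0.756, 31.2 ± 2.98 and 32.2 ± 1.17 RPKM in the same order. It varied by 0.37 ± 0.07 log2 in RERE with its peak at ZT23.1 (SE; limma, adjusted p = 0.0019) and by 0.52 ± 0.08 log2 in WT with its peak at ZT22.9 (adjusted p = 0.000152). In BRE it had 0.06 ± 0.07 log2 and did not pass (adjusted p for the difference of BRE against WT 0.00129, of RERE against BRE 0.0336). The Adam17 mean was lowest at ZT12 in all 4 genotypes, although its rhythm was called only in RERE and WT. The Cx3cl1 mean was highest at ZT12 in EpiRE and WT and at ZT16 in RERE, and in BRE it was lowest at ZT12. Rhbdf1, a rhomboid-like partner of ADAM17, was called in RERE (0.24 ± 0.06 log2) and WT (0.27 ± 0.06 log2), with peaks at ZT8.24 and ZT11.1. Sdc4, a heparan sulfate proteoglycan that holds chemokines, was called in RERE (0.38 ± 0.06 log2, ZT21.2), and its rhythm differed for RERE against BRE (adjusted p = 0.0197). Timp3, an inhibitor of ADAM17, was called in BRE (0.64 ± 0.17 log2, ZT2.39), and differed for BRE against WT (adjusted p = 0.00746).

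Among genes that induce chemokines or relay such signals, Relb, an NF-kB subunit, varied by 0.49 ± 0.10 log2 in BRE and 0.52 ± 0.10 log2 in RERE, with peaks at ZT2.08 and ZT1.53 (SE; limma, adjusted p = 0.011 and 0.00302). Ifngr2, a chain of the interferon gamma receptor, varied by 0.41 ± 0.08 log2 in RERE with its peak at ZT1.98 (adjusted p = 0.00313). In WT Nfkbia, which encodes the inhibitor of NF-kB, varied by 1.04 ± 0.28 log2 with its peak at ZT9.56 (adjusted p = 0.0206), and Ifngr1 by 0.57 ± 0.16 log2 with its peak at ZT10.7 (adjusted p = 0.0261).

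T cell markers were read beside the rhythms of Cxcl14 and Ccl20, since Thy1, which marks dendritic epidermal T cells, was high near lights on and low at ZT12 in RERE and WT. Thy1 was at 50.8 ± 4.82 RPKM at ZT0 and 21.1 ± 7.74 RPKM at ZT12 in RERE, and at 53.4 ± 7.78 and 25.3 ± 5.07 RPKM at these times in WT (SD, n = 4 mice each). It varied by 1.37 ± 0.18 log2 in RERE with its peak at ZT1.15 (SE; limma, adjusted p = 9.94e-05) and by 1.22 ± 0.14 log2 in WT with its peak at ZT23 (adjusted p = 7.17e-06). Over the 24 centred means its r with Cxcl14 was 0.86. Between mice of the same genotype and time, the T cell markers had r = -0.09 and rho = -0.07 with Cxcl14 (adjusted permutation p = 0.567 and 0.721; r = -0.59 in WT) and r = 0.10 and rho = 0.16 with Ccl20 (adjusted permutation p = 0.558 and 0.308). Thy1 was the only one of 6 T cell markers called in RERE and in WT, while 2 others were called in BRE and 0 in EpiRE. The same test called 16.4% of all tested genes in RERE, 34.4% in WT, 17.1% in BRE and 2.87% in EpiRE. The summed level of the 6 ranged from 47.5 to 98.1 RPKM in BRE, 37.8 to 83.1 RPKM in EpiRE, 25.6 to 82.5 RPKM in RERE and 33.8 to 89.8 RPKM in WT. Its part in the chemokine values was not tested.

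**Figure D5:**
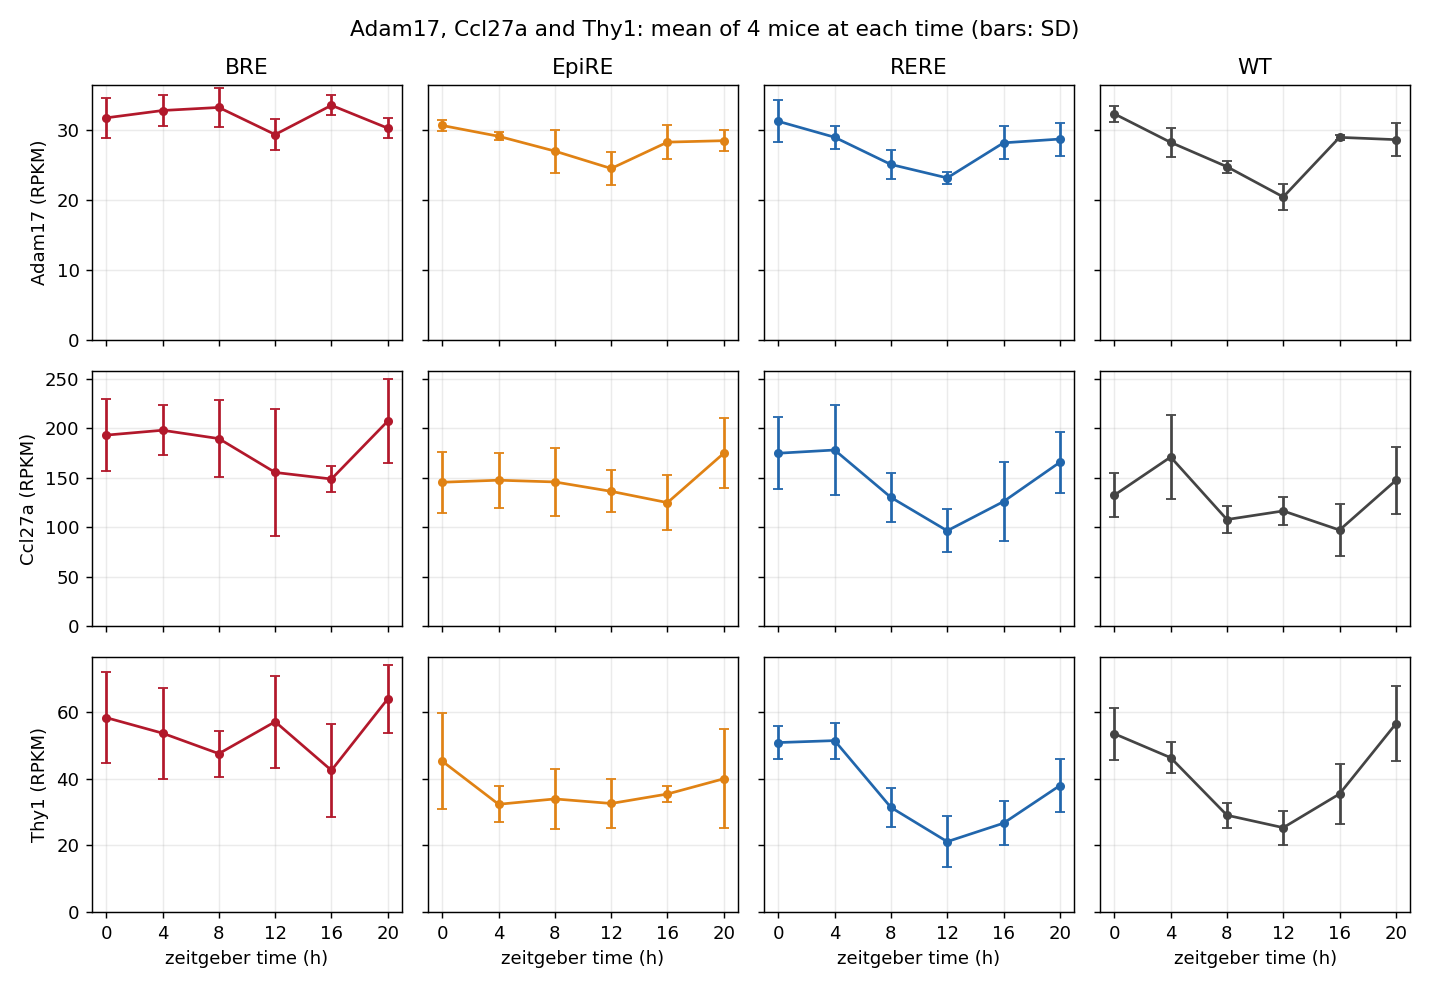
Level of Adam17, Ccl27a and Thy1 in RPKM against zeitgeber time in hours, by genotype, as means of 4 mice with SD. Adam17 and Thy1 are lowest at ZT12 in RERE and WT, and in BRE the Adam17 means stay between 29.3 and 33.5 RPKM.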

How the data were processed

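For each genotype the authors deposited a table of log2 values, whose unit the labels leave unnamed. Its deposited values behave as log2 RPKM with 2 reads added to each gene. Per the submitters' processing notes, reads were handled with Trimmomatic 0.36, HISAT2 2.2.1, SAMtools 1.3.1, featureCounts 1.6.0 and edgeR (version not given) on mm10. Values were printed as RPKM, with the added reads left in. The authors' deposited q-values (p-values adjusted for many tests) of JTK_CYCLE, and for Ccl20 also of BIOCYCLE, were read as they stand. A further 96 sample columns in the JTK_CYCLE tables were not used.

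The test of a rhythm was limma's moderated F test (limma 3.58.1, R 4.3.3, variance trend on) on a cosine and a sine of 24 h, for each genotype apart and for all 12144 genes whose mean reached 1 RPKM. P-values were adjusted by Benjamini and Hochberg over all of them, and genes with an adjusted p below 0.05 were called. Rhythm differences used the genotype by cosine and sine terms on 48 libraries, with a free mean per genotype. Sizes are fitted peak-to-trough log2 differences with delta-method SE, which are approximate for sizes near 0. Marker levels in the relations between mice are means of log2 values over each list. Positions come from GENCODE M21 (mm10) and promoter windows from RefSeq (GRCm38.p6).

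The chemokines and all gene lists were chosen with earlier results of these data known. Named besides the members are, per list, at most 4 called genes by smallest adjusted p, the 5 genes most like each picked chemokine, 4 clock genes and the highest marker of each list, plus receptors as stated. Predicted genes were passed over. Printed once for completeness, the highest hair follicle marker was Krt15 (mean 3924 RPKM), the highest neutrophil and macrophage marker Csf3r (5.87 RPKM) and the highest endothelial marker Pecam1 (0.132 RPKM). Alternatives covered library scaling, filters, pseudocount, the variance trend, the shape of the rhythm, the replicate block, and left-out replicates and libraries. The authors' JTK_CYCLE q was a further alternative. The low-filter alternatives for Ccl20 were chosen after seeing the data. Counts over the list of inducers and regulators are not reported here.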

Additional observations from a re-analysis of the deposited data

Results flagged for a closer look

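Within each genotype and time, the highest or lowest of 4 mice was compared with the rest. In 12 of 216 groups of a chemokine the gap to the nearest mouse exceeded Dixon's critical value, as a share of the group's range, and chance gives about 1 in 20. Cxcl14 had 120 RPKM in replicate 2 of WT at ZT12, against 86.1 to 90.2 RPKM in the other 3 mice (gap 0.862). In BRE at ZT20, replicate 1 had 12.1 RPKM of Cx3cl1, with the others at 10.3 to 10.5 RPKM (gap 0.888). Cx3cl1 had 17.8 RPKM in replicate 4 of EpiRE at ZT4, against 14.6 to 15.0 RPKM in the other 3 mice (gap 0.866). In RERE at ZT20, replicate 4 had 10.8 RPKM of Cx3cl1, with the others at 13.4 to 13.9 RPKM (gap 0.87). Cxcl16 had 16.2 RPKM in replicate 2 of RERE at ZT8, against 20.01 to 20.5 RPKM in the other 3 mice (gap 0.899). In EpiRE at ZT12, replicate 2 had 8.55 RPKM of Cxcl12, with the others at 4.41 to 4.70 RPKM (gap 0.903). Cxcl12 had 0.972 RPKM in replicate 2 of RERE at ZT8, against 3.00 to 3.72 RPKM in the other 3 mice (gap 0.839). In WT at ZT8, replicate 1 had 0.857 RPKM of Cxcl12, with the others at 4.25 to 5.15 RPKM (gap 0.893). Ccl2 had 2.77 RPKM in replicate 1 of BRE at ZT8, against 1.62 to 1.74 RPKM in the other 3 mice (gap 0.863). In WT at ZT0, replicate 1 had 1.40 RPKM of Ccl2, with the others at 0.884 to 0.940 RPKM (gap 0.866). Cxcl10 had 2.09 RPKM in replicate 2 of WT at ZT12, against 2.58 to 2.63 RPKM in the other 3 mice (gap 0.916). In WT at ZT0, replicate 1 had 0.0924 RPKM of Ccl22, with the others at 0.165 to 0.181 RPKM (gap 0.856). Replicate 2 of RERE at ZT8 stood apart for both Cxcl16 and Cxcl12.

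No rhythm difference passed for a chemokine outside the pair picked for its rhythm. Among related genes and T cell markers, 10 rhythm differences passed (limma, adjusted p). For BRE against WT they were Adam17 (0.00129), Il1r1 (0.0441), Thy1 (0.0223), Timp3 (0.00746) by limma adjusted p. For RERE against BRE they were Adam17 (0.0336), Ifngr2 (0.021), Sdc4 (0.0197), Thy1 (0.0265) by limma adjusted p. For RERE against EpiRE they were Relb (0.0231), Thy1 (0.0284) by limma adjusted p.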

How the results depend on the processing

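Of the 7 chemokines not picked for a rhythm, 0 were called in the main test in each genotype and pair. The count became 1 in RERE with no filter, with a filter at 0.3 RPKM and by the authors' JTK_CYCLE q, and 1 in WT with no filter and at 0.3 RPKM. Each of these calls was Ccl20, which is not tested at 1 RPKM. The authors' BIOCYCLE q did not call Ccl20 in RERE (0.149) or WT (0.239). The other 195 alternatives for these counts kept 0 or the count of correlated pairs within 1.5 times, and leaving out replicates gave 0 to 0. Correlated pairs numbered 20, and 25 after a common rescaling, of which 20 were shared. Over all genes, calls in BRE ranged from 211 to 2787 when replicates or libraries were left out, in EpiRE from 6 to 550, in RERE from 1034 to 2263 and in WT from 2065 to 4544. Other settings gave 689 to 2097, 19 to 355, 1035 to 2092 and 2521 to 4372 in the same order. For rhythm differences, leaving out replicates gave 1012 to 1873 for BRE against WT (2457 with all mice), 145 to 1376 for EpiRE against WT (1034), 0 to 2 for RERE against WT (55), 188 to 714 for RERE against BRE (582) and 74 to 256 for RERE against EpiRE (491). The fitted size of Cxcl14 stayed between 1.604 and 1.81 log2 in RERE and 1.27 and 1.52 in WT over 35 alternatives, and that of Cx3cl1 between 0.82 and 0.95 and between 0.99 and 1.10. In BRE and EpiRE, Cxcl14 had 0.09 to 0.23 and 0.56 to 0.71 log2 and Cx3cl1 0.15 to 0.29 and 0.32 to 0.56 log2, the last with time as 6 levels. Without replicate 2, the peak-to-trough size of the Cxcl14 rhythm difference was 1.45 log2 for BRE against WT (1.20 with all mice) and 1.17 log2 for EpiRE against WT (0.83). Replicate numbers did not pair the mice: deviations of same-numbered mice at other times had a mean correlation of -0.0009 (240 pairs), against 0.0005 for other numbers (720 pairs). With the replicate block, 0 of the unpicked chemokines tested at 1 RPKM were called in any comparison, and at 0.3 RPKM Ccl20 was called in RERE (limma, adjusted p = 0.00191) and WT (0.00489), as without it. Ccl22 held at most 12 reads in a library.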
